A study of Mus musculus with 47 samples.

Results

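Cholesterol synthesis and its regulation were followed through 27 genes in the striatum of mice that carry an expanded Huntington's disease allele, a mutation of Ccdc82, or both. The genes were taken by name, as a list of the pathway drawn up with earlier results of these data known, from the 48795 rows of the deposited count table. All 27 passed the filter on low counts that left 19193 genes. They comprise 7 genes of the mevalonate arm (Acat2, Hmgcs1, Mvk, Pmvk, Mvd, Idi1 and Fdps), 1 gene of the geranylgeranyl branch (Ggps1) and 11 genes of the squalene and sterol arm (Fdft1, Sqle, Lss, Cyp51, Tm7sf2, Msmo1, Nsdhl, Hsd17b7, Ebp, Sc5d and Dhcr7). The rest are 5 regulators of the sterol response (Srebf1, Srebf2, Scap, Insig1 and Insig2) and 3 genes of sterol transport and turnover (Stard4, Cyp46a1 and Abca1).

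The study holds 47 RNA-seq libraries that the labels call mRNA, each from the striatum of a mouse of 6 months on a C57BL background. The groups are Q140, Q140 Ccdc82+/-, Q140 Ccdc82-/-, Ccdc82+/-, Ccdc82-/- and wild type (WT). Every mouse of the 3 Q140 groups is labelled as carrying 1 Q140 knock-in copy of Htt, in which the CAG repeat is expanded, beside a normal copy. Ccdc82+/- and Ccdc82-/- name mice heterozygous and homozygous for a mutation of Ccdc82, whose nature is not given in the sources used here. Each group holds 8 mice, 4 of each sex, except Q140 Ccdc82-/- with 3 females and 4 males, so that 23 mice carried Q140 and 24 did not. Neither allele is described as limited to a cell type, and the labels do not say whether mice of a group were littermates.

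Brain cholesterol is made within the brain, because lipoproteins of the blood do not cross the blood-brain barrier, and in the adult most synthesis is credited to astrocytes and oligodendrocytes. Acetyl-CoA is built up to mevalonate and then to farnesyl diphosphate, from which squalene and the sterols branch off. When sterols in the endoplasmic reticulum are scarce, SCAP, the product of Scap, escorts the transcription factors encoded by Srebf1 and Srebf2 to the Golgi, where proteases release them. The products of Insig1 and Insig2 hold the complex back when sterols are abundant. Neurons remove cholesterol with the hydroxylase encoded by Cyp46a1, whose product can leave the brain.

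Each library held between 41.3 M and 61.7 M counts (median 47.7 M). Ccdc82 averaged 4.57 ± 0.67 CPM (counts scaled to a common library total) in Ccdc82-/- striata, 8.42 ± 0.52 CPM in Ccdc82+/- striata and 12.01 ± 0.77 CPM in WT striata (SD, n = 8 each), so the labels and the counts of the targeted gene go the same way. Htt counts do not separate its normal and expanded copies, and Htt averaged 199.0 ± 12.1 CPM in Q140 and 217.0 ± 9.36 CPM in WT striata (SD, n = 8 each). Markers of medium spiny neurons, the main neuron type of the striatum, summed to between 12552 and 14444 CPM in WT libraries, and markers of cortical excitatory neurons to between 128.0 and 141.6 CPM. A single Ccdc82-/- library, male 1, reached 343.8 CPM of choroid plexus markers, and WT male 1 reached 71.8 CPM.

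Promoters are shown for the 3 synthesis genes called lower with Q140 on average over the Ccdc82 backgrounds, Acat2, Msmo1 and Hmgcs1. The search was made because SREBP factors act on a sterol element beside CCAAT boxes. RefSeq windows from 250 bases before to 50 bases after the start (build GRCm38.p6) were found for 23 of the 27 genes, as 31 windows. The search covered both strands for TCACNCCAC, a core of the sterol element, and for CCAAT, the box bound by the factor NF-Y. Neither motif contains the other, but matches can share a base, as the last T of CCAAT with the first of TCACNCCAC. The 250 bases before the start follow, 5′ to 3′ on the strand of the gene, with matches in capitals; ATTGG marks CCAAT read on the other strand. They lie at chr17:12960726-12960975 on the minus strand for Acat2, at chr8:64733579-64733828 on the minus strand for Msmo1 and at chr13:119690101-119690350 on the plus strand for Hmgcs1.
Acat2: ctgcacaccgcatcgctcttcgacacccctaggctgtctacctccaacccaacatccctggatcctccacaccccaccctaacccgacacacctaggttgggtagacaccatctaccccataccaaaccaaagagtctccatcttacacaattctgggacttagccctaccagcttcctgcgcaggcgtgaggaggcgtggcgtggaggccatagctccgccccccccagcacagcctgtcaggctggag
Msmo1: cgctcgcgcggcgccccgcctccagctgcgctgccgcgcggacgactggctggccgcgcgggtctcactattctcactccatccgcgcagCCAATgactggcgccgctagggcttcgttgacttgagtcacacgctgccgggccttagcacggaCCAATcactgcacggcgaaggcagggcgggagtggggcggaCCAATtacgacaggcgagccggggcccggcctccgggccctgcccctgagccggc
Hmgcs1: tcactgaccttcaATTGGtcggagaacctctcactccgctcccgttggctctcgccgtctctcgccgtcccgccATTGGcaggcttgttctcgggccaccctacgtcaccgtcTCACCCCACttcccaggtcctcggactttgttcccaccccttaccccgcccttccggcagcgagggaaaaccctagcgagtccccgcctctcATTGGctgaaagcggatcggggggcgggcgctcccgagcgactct
The Hmgcs1 window held TCACNCCAC once, and of the 23 genes it was the only one with a match in any window. That is 4.35% of these genes, against 1.22% of all 27025 genes with a window. CCAAT was found in 20 of the 23 genes, or 87.0%, against 37.5% of all genes. Per window the shares were 67.7% of 31 and 33.8% of 32851. These 23 genes all passed the filter on low counts, which 19193 genes passed, so the 27025 genes are not matched to them in expression. In 20 of the 31 windows the bases after the start matched an annotated transcript of the gene. Msmo1 and Hmgcs1 held 3 CCAAT boxes each in the windows shown, and the Acat2 window held neither motif. A match of letters is a description and not a site shown to be bound.

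Levels of different genes were compared on the deposited FPKM, which are scaled per length. The ranks therefore rest on the length taken for each gene, which is not given in the sources used here. Lss and Ggps1 averaged 46.2 and 42.3 CPM in WT striata but 4.20 and 17.5 FPKM, with 10787 and 4721 annotated exon bases. Divided by these bases, the CPM of Lss come close to its FPKM, while those of Ggps1 fall well short of its FPKM. The lengths behind the FPKM thus do not match the annotated exon bases for every gene, and ranks that are close are uncertain. Cyp46a1 was the most abundant of the 27 genes in WT striata, at 133 ± 5.08 FPKM. Srebf2 followed at 53.1 ± 2.71 FPKM and Hmgcs1, the synthase that makes hydroxymethylglutaryl-CoA, at 41.8 ± 2.86 FPKM (SD, n = 8 each). Ranges of these 3 genes did not overlap between WT libraries. Fdft1, the squalene synthase at the entry to the sterols, was at 17.7 ± 1.01 FPKM. Ggps1, which makes geranylgeranyl diphosphate for protein prenylation, was at 17.5 ± 0.363 FPKM. This pair did not differ beyond its spread in FPKM, but that rests on the lengths taken. In CPM the pair averaged 51.8 and 42.3 in WT striata, with 4227 and 4721 annotated exon bases. Mean FPKM of the genes from Sqle down to Dhcr7 in rank (Sqle, Ebp, Nsdhl, Stard4, Lss, Mvk, Tm7sf2 and Dhcr7) lay between 3.68 and 4.56, with ranges that overlapped from each gene to the next. Hsd17b7, Fdps and Idi1 were lowest, at 2.98 ± 0.253, 1.85 ± 0.151 and 1.36 ± 0.150 FPKM. The low values of Fdps and Idi1 are uncertain, since near copies could take reads from them. For Fdps, processed pseudogenes match up to 76.8% of the transcript at 96.02% to 98.87% identity, and the overlapping gene Gm43738 matches 81.6% at 100% identity. For Idi1, the pseudogene Gm13502 matches 22.6% at 100% identity and averaged 215.6 counts per library, where Idi1 itself had 156 to 365.

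With Q140, the genes moved in both directions by small amounts. Averaged over the 3 Ccdc82 backgrounds, 8 of 27 were higher and 8 lower at an adjusted p under 0.05, or 59.3% called, where 54.3% of all tested genes were called (28.8% higher and 25.5% lower). The share called was thus near that of all tested genes. At an unadjusted p under 0.05, 18 of the 27 passed, where 58.3% of all tested genes did. The median log2 fold change of the 27 genes was 0.022, against 0.0043 over all tested genes, and the median size without sign was 0.081 against 0.10. By role, 3 genes of the mevalonate arm rose and 2 fell, 3 of the sterol arm rose and 1 fell, 1 regulator rose and 3 fell, and 1 gene of transport and turnover rose and 2 fell. Adjusted p-values are from edgeR's quasi-likelihood test with Benjamini-Hochberg adjustment over all tested genes, and levels below are CPM after TMM normalization (trimmed mean of M values), given as the lowest, median and highest library of a group.

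**Figure D1:**
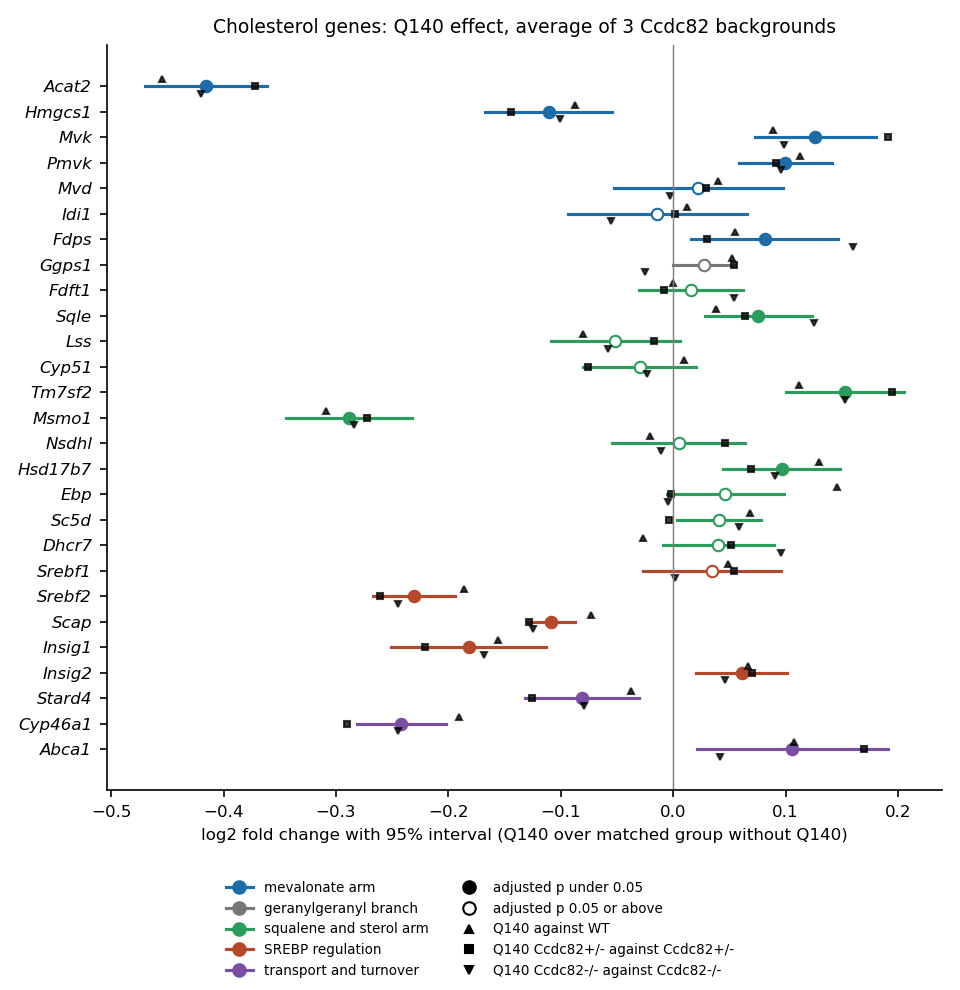
Log2 fold change of the 27 genes with Q140 (horizontal axis, Q140 over the matched group without Q140), ordered by role from top to bottom. Circles with lines are the average over 3 Ccdc82 backgrounds with its 95% interval, filled where the adjusted p is under 0.05, and small black marks are the single backgrounds; Acat2 lies lowest at -0.42 and Tm7sf2 highest at 0.15.

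Acat2, the cytosolic thiolase that joins acetyl-CoA units at the entry to the pathway, showed the largest change of the 27 genes. Acat2 was at 18.4, 19.5 and 20.7 CPM in Q140 striata, against 23.96, 26.95 and 29.7 CPM in WT striata. Acat2 was at 18.8, 20.03 and 21.6 CPM in Q140 Ccdc82+/- striata, against 23.2, 26.5 and 28.4 CPM in Ccdc82+/- striata. Acat2 was at 18.3, 21.1 and 22.9 CPM in Q140 Ccdc82-/- striata, against 25.6, 26.5 and 30.9 CPM in Ccdc82-/- striata. No Q140 library reached the lowest library of its matched group on any of the 3 backgrounds. The log2 fold change was -0.45 ± 0.046 in Q140 against WT (SE; adjusted p = 2.23e-11), -0.37 ± 0.046 on the Ccdc82+/- background (adjusted p = 4.38e-09) and -0.42 ± 0.048 on the Ccdc82-/- background (adjusted p = 5.59e-10). Averaged over backgrounds, Acat2 fell by 25.04% (log2 fold change -0.42 ± 0.027, adjusted p = 1.16e-18). Acat2 lies at chr17:12942890-12960747 (GRCm38, minus strand) beside the near copy Acat3, which matches 65.6% of its transcript at 97.6% identity, so reads could be split between them. Acat3 itself averaged 169.3 counts per library and differed by -0.14 ± 0.063 on the log2 scale with Q140 (SE, adjusted p = 0.0589).

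Msmo1 encodes a methylsterol monooxygenase that acts in the removal of methyl groups from the sterol ring. Msmo1 was at 45.2, 53.5 and 66.2 CPM in Q140 striata, against 63.5, 66.9 and 73.6 CPM in WT striata. Msmo1 was at 49.9, 53.4 and 57.3 CPM in Q140 Ccdc82+/- striata, against 60.1, 64.2 and 73.5 CPM in Ccdc82+/- striata. Msmo1 was at 49.6, 54.97 and 58.9 CPM in Q140 Ccdc82-/- striata, against 62.1, 65.9 and 70.03 CPM in Ccdc82-/- striata. The groups did not overlap on the Ccdc82+/- and Ccdc82-/- backgrounds, and 7 of 8 Q140 libraries lay below every WT library. Differences on the log2 scale were -0.31 ± 0.048 against WT (SE; adjusted p = 8.47e-07), -0.27 ± 0.048 (adjusted p = 8.39e-06) and -0.28 ± 0.049 (adjusted p = 8.91e-06) in the same order of backgrounds. Hmgcs1, the other synthesis gene that fell, acts directly after Acat2. Hmgcs1 was at 113, 128 and 158 CPM in Q140 striata, against 122, 139 and 154 CPM in WT striata. Hmgcs1 was at 107, 124 and 128 CPM in Q140 Ccdc82+/- striata, against 121, 137 and 144 CPM in Ccdc82+/- striata. Hmgcs1 was at 119.8, 125 and 141 CPM in Q140 Ccdc82-/- striata, against 126, 135 and 153 CPM in Ccdc82-/- striata. These groups overlapped on every background. The average log2 fold change of Hmgcs1 was -0.11 ± 0.028 (SE, adjusted p = 0.00082), and of the single backgrounds Ccdc82+/- passed, with -0.14 ± 0.048 (adjusted p = 0.0159). Scaled by total counts alone, the average was -0.046 and did not pass (adjusted p = 0.149).

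Mvk and Pmvk encode the kinases that act one after the other on mevalonate. Mvk was at 10.7, 11.97 and 12.96 CPM in Q140 striata, against 9.42, 11.4 and 12.7 CPM in WT striata. Mvk was at 11.995, 12.7 and 13.4 CPM in Q140 Ccdc82+/- striata, against 10.01, 11.3 and 11.8 CPM in Ccdc82+/- striata. Mvk was at 11.8, 12.02 and 12.8 CPM in Q140 Ccdc82-/- striata, against 10.1, 11.5 and 12.1 CPM in Ccdc82-/- striata. The groups with and without Q140 overlapped for Mvk on the WT and Ccdc82-/- backgrounds and stood apart on the Ccdc82+/- background. The average log2 fold change of Mvk was 0.13 ± 0.027 (SE, adjusted p = 7.32e-05), with 0.19 ± 0.046 on the Ccdc82+/- background (adjusted p = 0.000703) and no call on the WT background (0.089 ± 0.046, adjusted p = 0.134) or the Ccdc82-/- background (0.10 ± 0.047, adjusted p = 0.107). Pmvk was at 15.6, 18.4 and 19.3 CPM in Q140 striata, against 15.8, 16.3 and 18.8 CPM in WT striata. Pmvk was at 16.7, 17.6 and 19.004 CPM in Q140 Ccdc82+/- striata, against 15.5, 16.7 and 17.3 CPM in Ccdc82+/- striata. Pmvk was at 16.9, 18.2 and 18.8 CPM in Q140 Ccdc82-/- striata, against 16.1, 16.5 and 18.1 CPM in Ccdc82-/- striata. The ranges of Pmvk overlapped on each background, with 6 of 8 Q140 Ccdc82+/- libraries above all Ccdc82+/- libraries. The log2 fold changes of Pmvk were 0.11 ± 0.035 (SE; adjusted p = 0.00999), 0.091 ± 0.035 (adjusted p = 0.0386) and 0.10 ± 0.037 (adjusted p = 0.0379). On the Ccdc82+/- background the Pmvk call was lost under DESeq2, under RLE size factors, with no filter, with no sex term and with the plate column, read from the well addresses in the labels, as a factor (adjusted p = 0.0545 to 0.0901). On the Ccdc82-/- background it was lost with no filter, with only the groups compared and with the plate column (adjusted p = 0.0554 to 0.0699).

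Tm7sf2, a sterol reductase that acts after Cyp51, rose on all 3 backgrounds. Tm7sf2 was at 13.8, 14.6 and 15.4 CPM in Q140 striata, against 12.02, 13.6 and 14.6 CPM in WT striata. Tm7sf2 was at 13.6, 15.4 and 16.7 CPM in Q140 Ccdc82+/- striata, against 11.8, 13.2 and 14.9 CPM in Ccdc82+/- striata. Tm7sf2 was at 13.2, 14.1 and 15.5 CPM in Q140 Ccdc82-/- striata, against 11.5, 12.95 and 14.2 CPM in Ccdc82-/- striata. The ranges overlapped, and no Q140 library lay below its matched group. The log2 fold changes were 0.11 ± 0.045 against WT (SE; adjusted p = 0.0451), 0.19 ± 0.044 (adjusted p = 0.000406) and 0.15 ± 0.046 (adjusted p = 0.00797). The first of these calls was lost without WT male 1 (0.10, adjusted p = 0.08), and also under DESeq2 (adjusted p = 0.0539), RLE size factors (adjusted p = 0.0578) and no filter (adjusted p = 0.0669). Tm7sf2 shares 12.1% of its exon bases with Vps51 on the same strand, so some reads may belong to either gene. Hsd17b7, the ketosteroid reductase that completes the removal of a methyl group, averaged 0.10 ± 0.026 (SE, adjusted p = 0.00131).

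**Figure D2:**
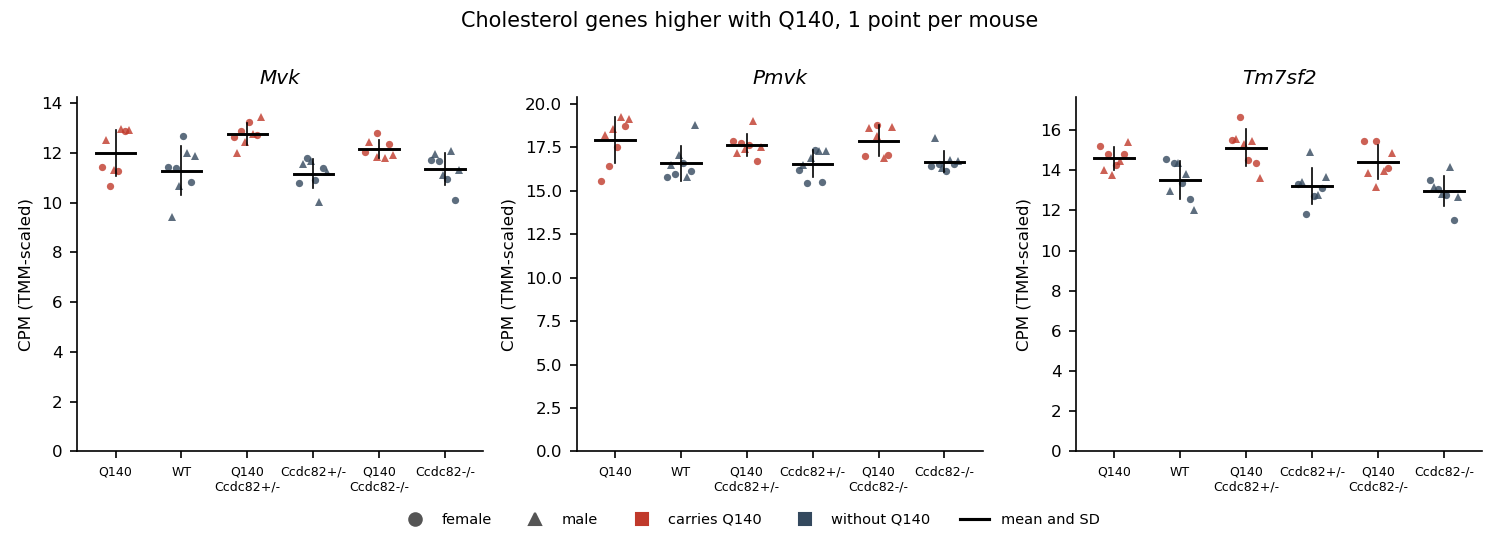
TMM-scaled CPM of Mvk, Pmvk and Tm7sf2 (vertical axes, from 0) in the 6 groups, 1 point per mouse, circles for females and triangles for males, with the mean and SD in black. The groups overlap except Mvk on the Ccdc82+/- background, where Q140 Ccdc82+/- libraries start at 11.995 CPM and Ccdc82+/- libraries end at 11.8 CPM.

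Hsd17b7, Sqle and Fdps rose by less than Tm7sf2 in the average. On single backgrounds, Hsd17b7 against WT and Fdps with Ccdc82-/- rose by more than Tm7sf2. Hsd17b7 was at 15.3, 17.2 and 17.9 CPM in Q140 striata, against 13.99, 15.2 and 17.998 CPM in WT striata. Hsd17b7 was at 14.9, 16.7 and 18.003 CPM in Q140 Ccdc82+/- striata, against 13.97, 15.8 and 17.3 CPM in Ccdc82+/- striata. Hsd17b7 was at 15.1, 16.2 and 18.4 CPM in Q140 Ccdc82-/- striata, against 13.3, 15.2 and 16.6 CPM in Ccdc82-/- striata. The Hsd17b7 ranges overlapped throughout, and WT was the single background that passed (0.13 ± 0.044, adjusted p = 0.0176). Sqle was at 23.6, 26.4 and 29.5 CPM in Q140 striata, against 24.6, 25.6 and 27.7 CPM in WT striata. Sqle was at 23.6, 26.2 and 28.3 CPM in Q140 Ccdc82+/- striata, against 22.4, 25.3 and 27.05 CPM in Ccdc82+/- striata. Sqle was at 25.1, 26.1 and 30.4 CPM in Q140 Ccdc82-/- striata, against 21.4, 24.6 and 27.3 CPM in Ccdc82-/- striata. For Sqle, the squalene epoxidase, the ranges overlapped and the Ccdc82-/- background alone passed, with 0.13 ± 0.042 (adjusted p = 0.0171) and an average of 0.076 ± 0.024 (SE, adjusted p = 0.00586). Fdps was at 7.42, 8.41 and 9.45 CPM in Q140 striata, against 6.73, 8.06 and 8.62 CPM in WT striata. Fdps was at 7.41, 8.11 and 8.29 CPM in Q140 Ccdc82+/- striata, against 6.99, 7.80 and 8.62 CPM in Ccdc82+/- striata. Fdps was at 7.29, 8.34 and 9.14 CPM in Q140 Ccdc82-/- striata, against 6.42, 7.43 and 7.98 CPM in Ccdc82-/- striata. Fdps, the farnesyl diphosphate synthase, overlapped on each background, passed on the Ccdc82-/- background (0.16 ± 0.058, adjusted p = 0.0277) and averaged 0.082 ± 0.033 (SE, adjusted p = 0.0303). The Fdps pseudogene with the closest match, Gm3571, averaged 267.4 counts per library and also rose, with 0.18 ± 0.033 (SE, adjusted p = 6.32e-06), so how reads fall between the pair is uncertain. With the plate column as a factor the Sqle call on the Ccdc82-/- background was lost (0.11, adjusted p = 0.0592), and so was that of Fdps there (0.073, adjusted p = 0.323). In that same fit the Fdps average was 0.030 and did not pass (adjusted p = 0.432).

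Of the synthesis genes, 10 did not pass in the average: Mvd, Idi1, Ggps1, Fdft1, Lss, Cyp51, Nsdhl, Ebp, Sc5d and Dhcr7. Their average log2 fold changes lay between -0.052 for Lss, the lanosterol synthase, and 0.047 for Ebp, a sterol isomerase, and the sign of Idi1, Lss and Cyp51 turned from below to above 0 under scaling by total counts alone. Under that scaling Mvd, Ggps1, Fdft1, Nsdhl, Ebp, Sc5d and Dhcr7 passed. Ebp passed in Q140 against WT alone among the single backgrounds, a call lost with the plate column as a factor (0.10, adjusted p = 0.125), and its values were chosen for print after they were seen. WT has 4 of its 8 libraries in plate column 4, and Q140 has 0. Ebp was at 10.95, 11.6 and 12.7 CPM in Q140 striata, against 9.62, 10.6 and 11.5 CPM in WT striata. Ebp was at 9.74, 11.02 and 11.8 CPM in Q140 Ccdc82+/- striata, against 9.88, 10.8 and 12.4 CPM in Ccdc82+/- striata. Ebp was at 10.3, 11.2 and 11.8 CPM in Q140 Ccdc82-/- striata, against 10.3, 11.4 and 12.4 CPM in Ccdc82-/- striata. In the WT comparison 7 of 8 Q140 libraries had more Ebp than any WT library, and on the other backgrounds the ranges overlapped. The log2 fold changes of Ebp were 0.15 ± 0.044 (SE; adjusted p = 0.00725), -0.0017 ± 0.044 (adjusted p = 0.982) and -0.0048 ± 0.046 (adjusted p = 0.952). The difference of the Ebp effect on the Ccdc82+/- from that on the WT background was -0.15 ± 0.062 (SE, adjusted p = 0.914).

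Of the 5 regulators of the sterol response 3 fell and 1 rose, where 25.5% of all tested genes fell and 28.8% rose. Srebf2, which encodes the factor that drives most genes of cholesterol synthesis, lies at chr15:82147181-82205379 (GRCm38, plus strand). Srebf2 was at 219, 237 and 252 CPM in Q140 striata, against 251, 267 and 298 CPM in WT striata. Srebf2 was at 218, 229 and 247 CPM in Q140 Ccdc82+/- striata, against 262, 275 and 289 CPM in Ccdc82+/- striata. Srebf2 was at 212, 230.4 and 255 CPM in Q140 Ccdc82-/- striata, against 259, 274 and 282 CPM in Ccdc82-/- striata. On the WT background 7 of 8 Q140 libraries lay below all WT libraries, and on the other backgrounds the groups did not overlap. Srebf2 had log2 fold changes of -0.19 ± 0.031 (SE; adjusted p = 3.14e-06), -0.26 ± 0.031 (adjusted p = 1.47e-09) and -0.24 ± 0.032 (adjusted p = 2.24e-08), and on average it fell by 14.8%. Srebf1, its relative with more weight on fatty acid genes, did not pass, with an average of 0.035 ± 0.031 (SE, adjusted p = 0.351). Scaled by total counts alone, the Srebf1 average passed as higher with Q140, where 45.1% of all tested genes were called higher.

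Scap was at 98.9, 102 and 106 CPM in Q140 striata, against 104, 109 and 112 CPM in WT striata. Scap was at 99.5, 100.4 and 104 CPM in Q140 Ccdc82+/- striata, against 107, 111 and 112 CPM in Ccdc82+/- striata. Scap was at 99.6, 101 and 103 CPM in Q140 Ccdc82-/- striata, against 107, 109 and 115 CPM in Ccdc82-/- striata. The Scap ranges overlapped in the WT comparison and stood apart in both others. Its log2 fold changes were -0.073 ± 0.018 (SE; adjusted p = 0.000908), -0.13 ± 0.018 (adjusted p = 5.5e-08) and -0.12 ± 0.018 (adjusted p = 3.01e-07). Scaled by total counts alone the average for Scap was -0.044 (adjusted p = 0.000134) in place of -0.11, and the WT comparison did not pass, with -0.016 (adjusted p = 0.475).

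Insig1 was at 33.03, 37.8 and 43.9 CPM in Q140 striata, against 36.7, 42.98 and 45.8 CPM in WT striata. Insig1 was at 31.9, 38.5 and 43.2 CPM in Q140 Ccdc82+/- striata, against 37.7, 43.9 and 47.6 CPM in Ccdc82+/- striata. Insig1 was at 30.7, 40.4 and 46.3 CPM in Q140 Ccdc82-/- striata, against 40.1, 42.7 and 47.2 CPM in Ccdc82-/- striata. Insig1 ranges overlapped on every background, and the spread was widest in Q140 Ccdc82-/- libraries. Insig1 had log2 fold changes of -0.16 ± 0.059 (SE; adjusted p = 0.0345), -0.22 ± 0.059 (adjusted p = 0.00231) and -0.17 ± 0.061 (adjusted p = 0.0276). Without Ccdc82-/- male 1 the last of these was -0.16 and did not pass (adjusted p = 0.0554), and that call was also lost under total counts (adjusted p = 0.209), no filter, no sex term and only the groups compared. The call against WT was lost under total counts (adjusted p = 0.206), no filter, no sex term and the plate column. The average under total counts alone was -0.12 (adjusted p = 0.00449) in place of -0.18. Insig1 lies on chromosome 5 at 6.68 Mb from Htt, so sequence linked to the knock-in allele cannot be told apart from the allele itself there. Insig2, the second of the pair, moved the other way. Insig2 was at 41.5, 43.1 and 44.8 CPM in Q140 striata, against 37.5, 40.96 and 46.3 CPM in WT striata. Insig2 was at 40.3, 41.6 and 46.2 CPM in Q140 Ccdc82+/- striata, against 37.9, 40.96 and 41.7 CPM in Ccdc82+/- striata. Insig2 was at 40.2, 42.6 and 46.3 CPM in Q140 Ccdc82-/- striata, against 38.4, 40.8 and 45.7 CPM in Ccdc82-/- striata. The Insig2 ranges overlapped on each background, no single background passed, and the average was 0.061 ± 0.020 (SE, adjusted p = 0.00886). With the plate column as a factor it was 0.052 and did not pass (adjusted p = 0.0575).

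**Figure D3:**
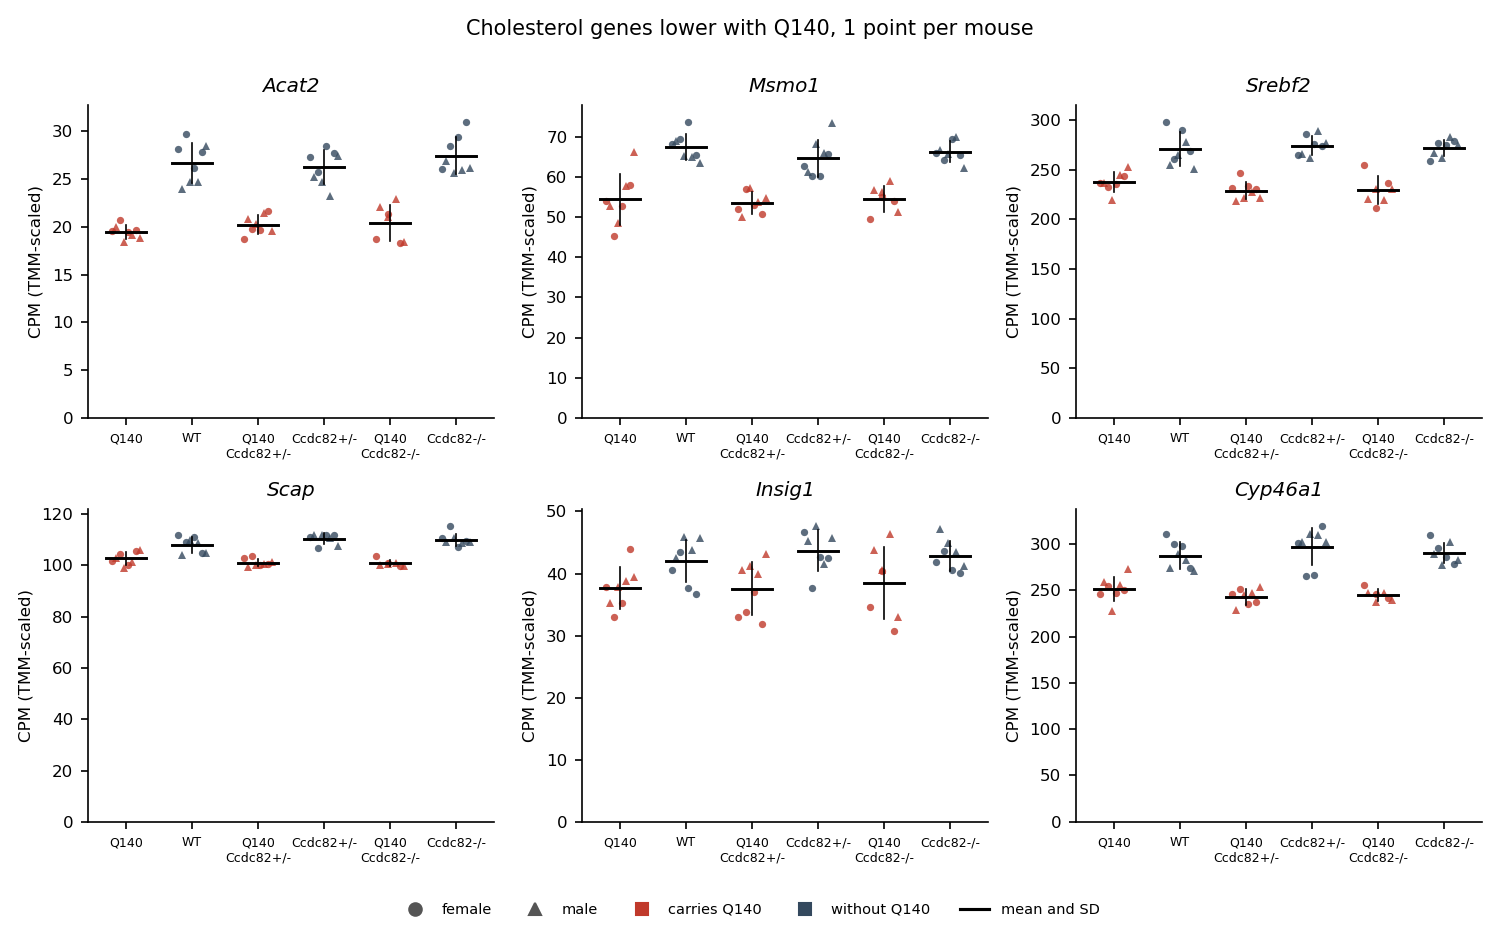
TMM-scaled CPM of Acat2, Msmo1, Srebf2, Scap, Insig1 and Cyp46a1 (vertical axes, from 0) in the 6 groups, 1 point per mouse, circles for females and triangles for males, with the mean and SD in black. Acat2 does not overlap between groups on any background, with 18.3 to 22.9 CPM in the 23 Q140 carriers and 23.2 to 30.9 CPM in the 24 mice without Q140; Insig1 overlaps on all 3.

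Cyp46a1, at chr12:108334381-108362234 (GRCm38, plus strand), changed most among the genes of transport and turnover. Cyp46a1 was at 227, 253 and 273 CPM in Q140 striata, against 270.3, 286 and 311 CPM in WT striata. Cyp46a1 was at 228, 245 and 253 CPM in Q140 Ccdc82+/- striata, against 265, 302 and 319 CPM in Ccdc82+/- striata. Cyp46a1 was at 237, 246 and 256 CPM in Q140 Ccdc82-/- striata, against 278, 288 and 309 CPM in Ccdc82-/- striata. Again 7 of 8 Q140 libraries lay below all WT libraries, and the groups stood apart on the other backgrounds. Cyp46a1 had log2 fold changes of -0.19 ± 0.034 (SE; adjusted p = 8.97e-06), -0.29 ± 0.034 (adjusted p = 7.22e-10) and -0.24 ± 0.035 (adjusted p = 1.4e-07), and on average it fell by 15.4%. Stard4, a cytosolic carrier of sterols, had a smaller difference. Stard4 was at 22.6, 24.2 and 25.7 CPM in Q140 striata, against 22.9, 25.1 and 26.9 CPM in WT striata. Stard4 was at 21.6, 24.6 and 25.5 CPM in Q140 Ccdc82+/- striata, against 22.4, 26.6 and 28.2 CPM in Ccdc82+/- striata. Stard4 was at 21.6, 22.4 and 26.6 CPM in Q140 Ccdc82-/- striata, against 22.2, 24.5 and 26.99 CPM in Ccdc82-/- striata. Stard4 ranges overlapped on each background, and the average was -0.081 ± 0.025 (SE, adjusted p = 0.00567), or -0.017 under total counts alone (adjusted p = 0.617), and the Ccdc82+/- background was the single one that passed, with -0.13 ± 0.043 (adjusted p = 0.0183). Abca1 encodes the transporter that loads cholesterol onto apolipoproteins. Abca1 was at 60.9, 69.98 and 92.9 CPM in Q140 striata, against 60.2, 63.5 and 79.7 CPM in WT striata. Abca1 was at 57.4, 76.1 and 79.2 CPM in Q140 Ccdc82+/- striata, against 59.4, 62.99 and 72.6 CPM in Ccdc82+/- striata. Abca1 was at 60.6, 69.8 and 83.8 CPM in Q140 Ccdc82-/- striata, against 62.9, 69.9 and 73.8 CPM in Ccdc82-/- striata. Abca1 overlapped on each background, with 6 of 8 Q140 Ccdc82+/- libraries above all Ccdc82+/- libraries, and averaged 0.11 ± 0.042 (SE, adjusted p = 0.0299) with no single background past the threshold. With the plate column as a factor the Abca1 average was 0.077 and did not pass (adjusted p = 0.176).

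Calls in single backgrounds numbered 10 of 27 in Q140 against WT (4 higher and 6 lower, 37%, against 34.7% of all tested genes). With Ccdc82+/- there were 11 (40.7%, against 35%), of which 3 rose and 8 fell. With Ccdc82-/- there were 10 (37%, against 33.2%), of which 4 rose and 6 fell. These 3 comparisons share no library. Acat2, Msmo1, Srebf2, Scap, Insig1, Cyp46a1, Pmvk and Tm7sf2 passed in all of them, 8 genes or 29.6%, where 23.1% of all tested genes did. Acat2, Msmo1, Srebf2 and Cyp46a1 kept all 3 calls under every alternative run, while Pmvk, Tm7sf2, Insig1 and Scap each lost at least 1. The log2 fold change had the same sign in all 3 for 18 of 27 genes, or 66.7%, against 70.3% of all tested genes. Scaling by total counts alone set the median of all tested genes in the average at 0.069 in place of 0.0043, with 16 of the 27 genes called higher and 6 lower in place of 8 and 8. Of all tested genes 45.1% were then higher and 15.5% lower. By that scaling the splits were 8 higher and 4 lower against WT, where 30.9% and 11.1% of all tested genes were called. They were 9 and 6 on the Ccdc82+/- background (34.0% and 10.1% of all tested genes) and 10 and 5 on the Ccdc82-/- background (32.1% and 9.69%).

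Cell markers moved with Q140 beside these genes. Marker counts are from the average over the 3 Ccdc82 backgrounds, where 25.5% of all tested genes fell and 28.8% rose. Sums are given for the Q140 and WT groups. Of 12 markers of medium spiny neurons 11 fell and 1 rose, and their summed level ran from 8284 to 10000.4 CPM in Q140 libraries, against 12552 to 14444 CPM in WT libraries. Of 10 astrocyte markers 6 fell and none rose, with sums of 1245 to 1369 CPM in Q140 and 1365 to 1485 CPM in WT libraries. Of 12 oligodendrocyte markers 7 fell and none rose, with sums of 5719 to 7669 CPM in Q140 and 5902 to 7391 CPM in WT libraries. All 10 microglial markers and 9 of 10 endothelial and mural markers fell, and of 8 cortical neuron markers 3 rose and 2 fell. Of 8 markers of oligodendrocyte precursors 2 rose and 2 fell, of 9 of choroid plexus 1 rose and 2 fell, and of 6 of ependymal cells none passed. In Q140 against WT alone, 5 astrocyte, 5 oligodendrocyte, 3 microglial and 7 endothelial or mural markers fell, where 16.5% of all tested genes fell. On the Ccdc82+/- background 2, 2, 9 and 9 fell in the same order, and on the Ccdc82-/- background 5, 7, 8 and 7. Kcne2 of the choroid plexus and Tmem212 of ependymal cells were at 0 in at least 1 library, and no other marker was. The part of these markers in the changes of Acat2, Msmo1, Srebf2, Cyp46a1 and the other genes was not tested, and in bulk tissue fewer cells of a type and less RNA per cell cannot be told apart.

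None of the 27 genes passed the threshold in Ccdc82+/- or Ccdc82-/- mice against mice without the mutation. Ccdc82 itself was the only gene called among all tested genes in Ccdc82+/- or Ccdc82-/- against WT and in Q140 Ccdc82+/- or Q140 Ccdc82-/- against Q140, which is 0.00521% in each. Log2 fold changes of the 27 genes lay between -0.060 and 0.069 in Ccdc82+/- against WT and between -0.11 and 0.084 in Ccdc82-/- against WT. They lay between -0.11 and 0.089 in Q140 Ccdc82+/- against Q140, and between -0.069 and 0.075 in Q140 Ccdc82-/- against Q140. At an unadjusted p under 0.05, edgeR called 0, 0, 2 and 1 of the 27 genes in these 4 comparisons, where 3.27%, 4.19%, 5.74% and 3.71% of all tested genes passed. The 95% interval of a log2 fold change had a median half-width of 0.088 to 0.091. That width goes with an unadjusted p of 0.05. A call after adjustment over all tested genes needs a larger difference, so differences of about that size could go uncalled. For Acat2 the difference of Q140 Ccdc82-/- from Q140 was 0.074 ± 0.048 and for Srebf2 -0.051 ± 0.032 (SE).

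The effect of Q140 was not shown to differ between Ccdc82 backgrounds. No gene passed in either interaction, among the 27 or among all tested genes (0%), and at an unadjusted p under 0.05 edgeR called 3 of the 27 with Ccdc82+/- and 4 with Ccdc82-/-, where 5.27% and 4.3% of all tested genes passed. The extremes among the 27 were Ebp, at -0.15 ± 0.062 with Ccdc82+/- and -0.15 ± 0.063 with Ccdc82-/-, and Dhcr7, the reductase that yields cholesterol, at 0.12 ± 0.061 with Ccdc82-/- (SE, adjusted p = 0.998). Scap had -0.056 ± 0.025 with Ccdc82+/- and -0.052 ± 0.025 with Ccdc82-/- (SE, adjusted p = 0.914 and 0.998). The interval of an interaction had a median half-width of 0.13 on the log2 scale.

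Females had lower levels than males for 7 of the 27 genes and higher levels for none. With no filter 5 were lower, Pmvk and Sc5d being lost, and with the plate column 6, Sc5d being lost. The 7 are 25.9% of the 27, where 8.67% of all tested genes were called, 4.64% higher and 4.03% lower in females. They were Fdft1, Lss, Sqle, Hsd17b7 and Sc5d of the sterol arm, Pmvk of the mevalonate arm and the regulator Insig1. The difference was taken as the average over the 6 groups.

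Fdft1 ran from 41.1 to 55.7 CPM in females (median 48.99), against 48.97 to 58.4 CPM in males (median 53.7). Lss, which closes the ring of lanosterol, ran from 35.7 to 47.6 CPM in females (median 42.6), against 40.5 to 53.4 CPM in males (median 47.3). Insig1 ran from 30.7 to 46.7 CPM in females (median 37.8), against 33.04 to 47.6 CPM in males (median 42.9). Females and males overlapped in each, with the female median below the male median. The log2 fold change of females over males was -0.13 ± 0.023 for Fdft1 (SE; adjusted p = 0.000168), -0.13 ± 0.029 for Lss (adjusted p = 0.00273) and -0.14 ± 0.034 for Insig1 (adjusted p = 0.0086). Fdft1 shares 18.3% of its exon bases with the abundant gene Ctsb on the opposite strand, and whether counting used strand is not given in the sources used here. Sqle ran from 21.4 to 28.5 CPM in females (median 25.1), against 24.5 to 30.4 CPM in males (median 26.1). Hsd17b7 ran from 13.3 to 17.5 CPM in females (median 15.6), against 14.8 to 18.4 CPM in males (median 16.6). Pmvk ran from 15.5 to 18.8 CPM in females (median 16.5), against 15.8 to 19.3 CPM in males (median 17.4). The female medians again lay below the male medians. Sc5d, a sterol desaturase, ran from 32.99 to 41.1 CPM in females (median 35.96), against 35.1 to 40.9 CPM in males (median 37.7). All 4 overlapped between sexes, and the log2 fold changes were -0.083 ± 0.024 for Sqle (SE; adjusted p = 0.0235), -0.087 ± 0.026 for Hsd17b7 (adjusted p = 0.028), -0.068 ± 0.021 for Pmvk (adjusted p = 0.032) and -0.057 ± 0.019 for Sc5d (adjusted p = 0.043).

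By group, values follow for the genes called by sex and not in the average Q140 effect. Fdft1 was at 41.1, 52.3 and 58.4 CPM in Q140 striata, against 48.99, 51.7 and 57.2 CPM in WT striata. Fdft1 was at 44.8, 53.7 and 55.7 CPM in Q140 Ccdc82+/- striata, against 47.1, 53.9 and 55.04 CPM in Ccdc82+/- striata. Fdft1 was at 47.4, 52.7 and 55.05 CPM in Q140 Ccdc82-/- striata, against 43.4, 49.8 and 54.4 CPM in Ccdc82-/- striata. The Fdft1 ranges overlapped in each pair. Lss was at 40.7, 43.96 and 45.7 CPM in Q140 striata, against 39.8, 46.1 and 53.4 CPM in WT striata. Lss was at 40.5, 45.8 and 50.1 CPM in Q140 Ccdc82+/- striata, against 41.6, 45.3 and 50.8 CPM in Ccdc82+/- striata. Lss was at 35.7, 44.7 and 50.9 CPM in Q140 Ccdc82-/- striata, against 40.5, 45.1 and 51.3 CPM in Ccdc82-/- striata. The Lss ranges overlapped as well. Sc5d was at 35.5, 38.7 and 41.1 CPM in Q140 striata, against 34.7, 36.2 and 39.1 CPM in WT striata. Sc5d was at 33.9, 37.2 and 38.98 CPM in Q140 Ccdc82+/- striata, against 35.1, 36.8 and 38.4 CPM in Ccdc82+/- striata. Sc5d was at 35.8, 37.9 and 40.03 CPM in Q140 Ccdc82-/- striata, against 32.99, 37.02 and 39.3 CPM in Ccdc82-/- striata. Sc5d overlapped in each pair, and none of these 3 genes passed with Q140. Of the other 97 pathway genes 1 was higher and 4 lower in females, or 5.15% called. Of all tested genes 8.67% were called by sex, 4.64% higher and 4.03% lower in females. Of the cell markers, 2 each of oligodendrocyte precursors, microglia and endothelial or mural cells were higher in females and 1 of astrocytes was lower, and their part in the sex differences was not tested.

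**Figure D4:**
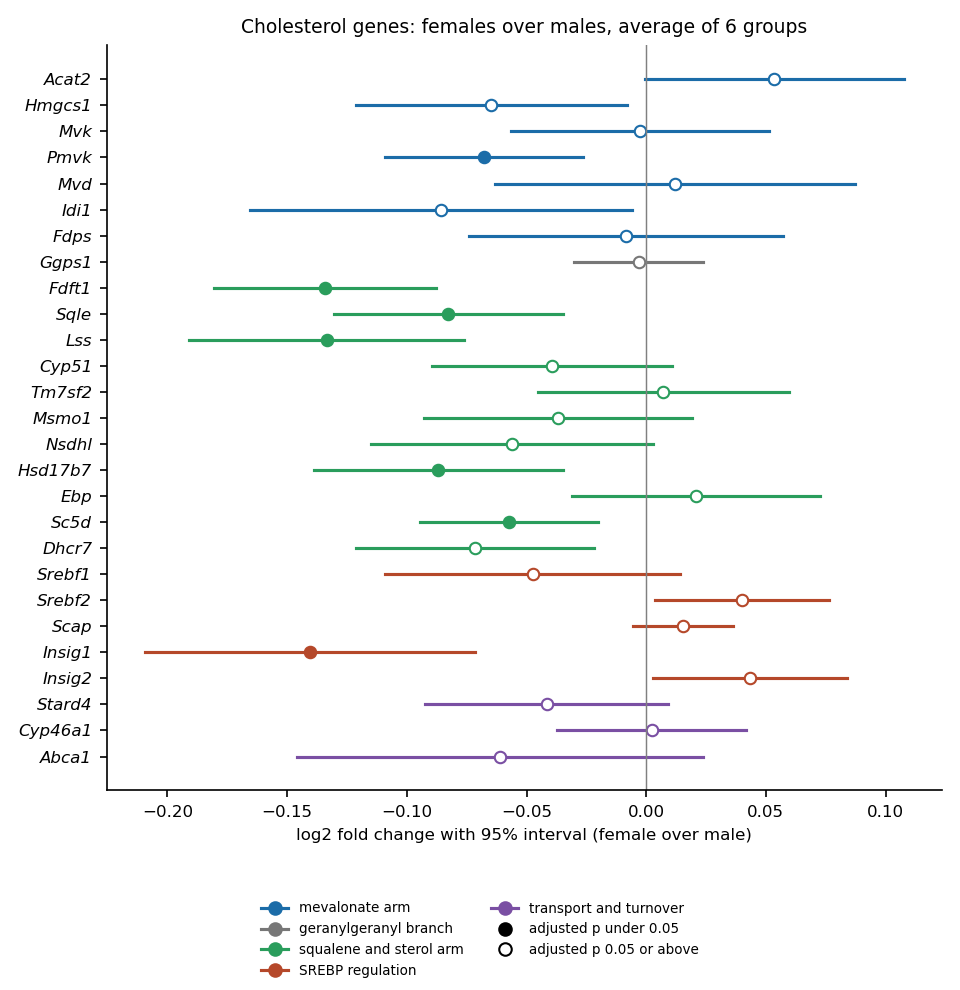
Log2 fold change of the 27 genes in females over males (horizontal axis), averaged over the 6 groups, with 95% intervals; filled circles have an adjusted p under 0.05. The 7 filled circles all lie below 0, from -0.14 for Insig1 to -0.057 for Sc5d.

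No gene passed for a difference of the Q140 effect between females and males, among the 27 or among 19714 genes tested (0%). At an unadjusted p under 0.05 edgeR called 1 of the 27, where 3.15% of all tested genes passed. That gene was Acat2, with a difference of -0.16 ± 0.05 (SE, adjusted p = 1) for females minus males, where a negative value is a larger fall with Q140 in females.

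Between mice of the same group and sex, the enzymes moved together weakly. Log2 CPM was freed of group and sex means, and Pearson's r was taken over 47 libraries as a description, since genes share the library, its depth and its dissection. Among the 18 enzymes of the mevalonate and sterol arms the median r over 153 pairs was 0.19, against about 0 over pairs of the 13893 genes whose mean log2 CPM reached 1 (-9.6e-05). An r over 0.5 was reached by 7.19% of enzyme pairs and by 2.19% of all pairs. Without Q140 female 4 and Q140 male 2, the 2 libraries whose mean over the 27 genes lay farthest from the median, these shares were 3.27% and 2.17%, and the median over enzyme pairs was 0.16. Mvd, the decarboxylase that makes isopentenyl diphosphate, and Cyp51, the lanosterol demethylase, had the highest r, 0.76. Hmgcs1 had the highest median r with the other enzymes, 0.40, and reached 0.62 with Sqle and 0.55 with Msmo1. Lss had 0.62 with Dhcr7 and -0.58 with Insig2. Scap and Cyp46a1 had 0.63, and Srebf1 and Abca1 had 0.65. Median r with the enzymes was 0.17 for Srebf2, 0.27 for Insig1, -0.084 for Srebf1, -0.12 for Abca1 and -0.16 for Ggps1. Without those 2 libraries the same medians were 0.15, 0.17, -0.19, -0.18 and -0.089.

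**Figure D5:**
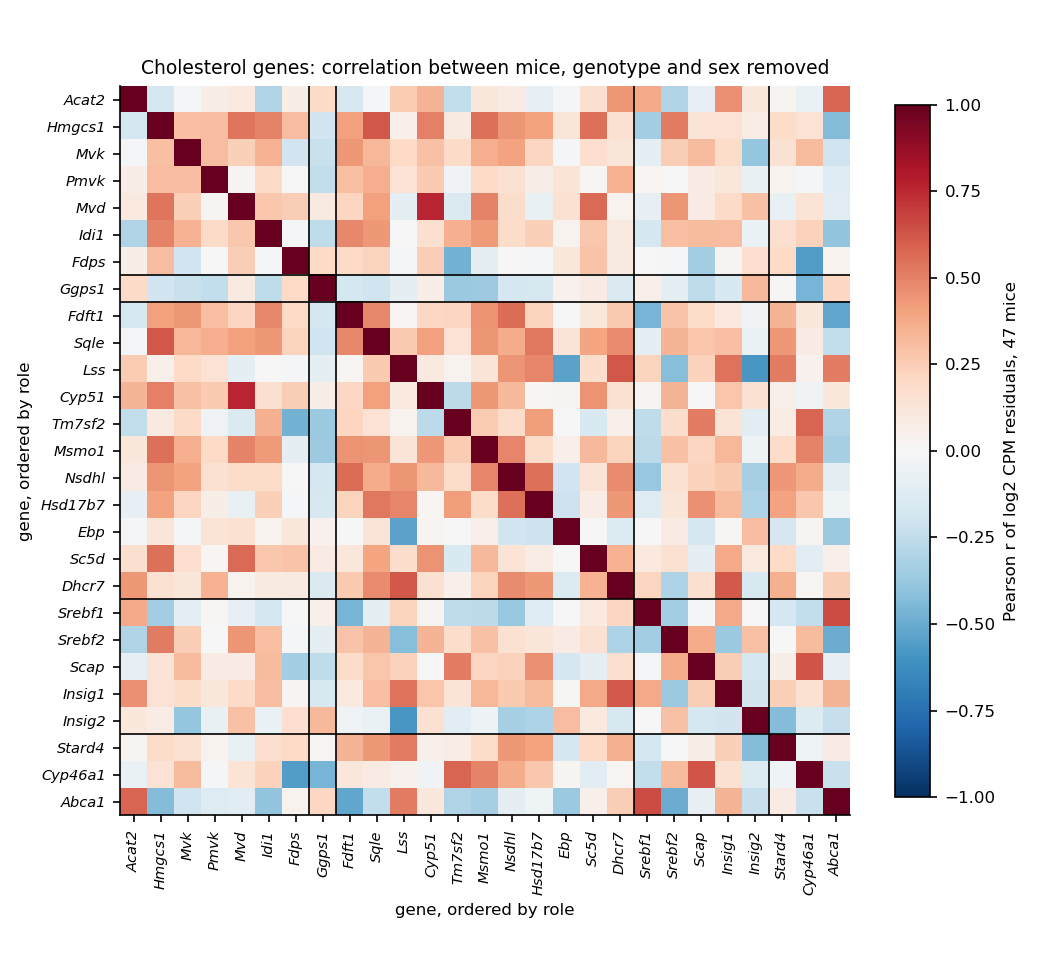
Pearson's r between the 27 genes (both axes, ordered by role, black lines between roles) over 47 libraries after group and sex means were removed; red is positive and blue negative. Mvd and Cyp51 form the deepest red cell off the diagonal (0.76), and Lss and Insig2 the deepest blue one (-0.58).

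Beyond the 27 genes, 97 of 100 other genes listed for sterol and isoprenoid metabolism were measured, and with Q140, 33 rose, 33 fell and 31 did not pass. That is 68.0% called (34.0% in each direction), where 54.3% of all tested genes were called, 28.8% higher and 25.5% lower. Of 17 genes of SREBP processing and sterol sensing 9 rose and 3 fell. Mbtps1, the first of the Golgi proteases that cut the SREBP factors, fell by 0.31 ± 0.027 on the log2 scale (SE, adjusted p = 2.06e-13). It stood at 138, 151 and 165 CPM in Q140, against 173, 189 and 207 CPM in WT striata. Nfya, a subunit of the CCAAT-binding factor NF-Y, rose by 0.35 ± 0.030 (SE, adjusted p = 4.32e-14), and stood at 30.8, 36.4 and 41.6 CPM in Q140, against 25.7, 29.4 and 30.5 CPM in WT striata. Both genes were called beside Srebf2 and Scap in the same average. Pgrmc1, a partner of sterol cytochromes, rose by 0.14 ± 0.013 (SE, adjusted p = 9.78e-13).

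Of 6 measured genes among 8 other synthesis genes 1 rose and 3 fell. Por, the reductase that feeds electrons to Cyp51 and Sqle, fell by 0.17 ± 0.015 (SE, adjusted p = 3.76e-14), while the mitochondrial thiolase Acat1 rose by 0.11 ± 0.015 (SE, adjusted p = 4.76e-09). The cytosolic counterpart of Acat1, Acat2, fell in the same average. Of 13 genes of other isoprenoid branches 8 rose and 4 fell, with Nus1 at -0.21 ± 0.014 and Dhdds at 0.094 ± 0.014; both encode subunits of the same transferase of the dolichol branch. Rabggta, a subunit of the geranylgeranyl transferase of Rab proteins, fell, with -0.14 ± 0.018.

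Of 8 genes of oxysterol and bile acid metabolism 3 rose and 1 fell, beside the fall of Cyp46a1. The 3 that rose were Sult2b1, a sterol sulfotransferase, with 0.53 ± 0.050, and the oxysterol hydroxylases Cyp7b1, with 0.27 ± 0.032, and Cyp27a1, with 0.19 ± 0.041 (SE; adjusted p = 4.51e-13, 4.81e-10 and 6.56e-05). Of 12 apolipoprotein and efflux genes 5 rose and 5 fell, among them the transporter Abca7, with 0.48 ± 0.037, and the apolipoprotein gene Clu, with -0.22 ± 0.020. Of 10 lipoprotein receptor and uptake genes none rose and 5 fell, Scarb1 and Sorl1 among them with -0.11 ± 0.029 and -0.070 ± 0.024 (SE, adjusted p = 0.000741 and 0.0108). Scarb1 did not fall on the Ccdc82+/- background, where it averaged 39.3 CPM in Q140 Ccdc82+/- and 38.8 CPM in Ccdc82+/- striata. Of 16 measured genes of intracellular transport and storage 4 rose and 4 fell, Nceh1 with 0.23 ± 0.017, Gramd1a with 0.11 ± 0.014 and Osbp with -0.079 ± 0.012. Of 15 fatty acid targets of the SREBP factors 3 rose and 8 fell, Fads1 and Fasn with -0.14 ± 0.012 and -0.093 ± 0.012 and Pnpla3 with 0.42 ± 0.053.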

How the data were processed

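RNA was extracted with a Qiagen RNeasy kit and libraries followed the Illumina TruSeq stranded protocol, per the labels' protocols. STAR 2.7.5c, SAMtools 1.10, HTSeq 0.12.3 and the build GRCm38 (mm10) are named in the submitters' processing notes; the settings, strand option and annotation release are not given in the sources used here. The authors deposited raw read counts per gene and FPKM, and the deposited FPKM equal count over total over 1 length per gene to a relative deviation of 1e-14.

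Counts were tested with edgeR 4.0.16 in R 4.3.3: filterByExpr kept 19193 genes, TMM scaled the libraries, and robust quasi-likelihood fits used group and sex over all 47 libraries, with Benjamini-Hochberg adjustment over all tested genes and a threshold of 0.05. A model with 12 coefficients (group by sex, 19714 genes) tested the difference of the Q140 effect between sexes. The fits were first run on simulated counts in which far fewer genes changed than were called here with Q140. That run does not test the scaling under so broad a change. A standard error is the log2 fold change over the square root of its F. Total counts of 41.3 M to 61.7 M set the counting error, and p-values cover the spread between these mice. CPM compare 1 gene across groups, FPKM compare genes on the lengths taken for them. Correlations used log2 CPM with a prior count of 2. Positions come from the GENCODE M21 annotation, promoters from RefSeq, near copies from transcript alignments of at least 95% identity. Alternatives were DESeq2 1.42.0, other scalings, no filter, no sex term, each sex alone, the plate column, a replicate block, only the groups compared, and 2 libraries left out in turn.

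The 27 genes and all lists were chosen with earlier results of these data known. Beside the 27, up to 3 genes per pathway list with the smallest p in the average Q140 effect are named. A few genes this rule selects are not reported here.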

Additional observations from a re-analysis of the deposited data

Results flagged for a closer look

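Of 162 sets of values, each 1 gene in 1 group, 11 held a library far from the others of its group; chance alone gives about 1 in 20 sets. Hmgcs1 was high in Ccdc82-/- male 3, at 153 CPM where the others ran from 126 to 137 CPM. It was also high in Q140 Ccdc82-/- male 1, at 140.7 CPM (others 119.8 to 128 CPM), and low in Q140 Ccdc82+/- female 4, at 107 CPM (others 119 to 128 CPM). Pmvk was high in Ccdc82-/- male 1, at 18.1 CPM (others 16.1 to 16.8 CPM), and in WT male 4, at 18.8 CPM (others 15.8 to 17.0 CPM). Mvd was high in WT female 3, at 13.1 CPM (others 10.2 to 11.5 CPM). Ebp was low in Q140 Ccdc82-/- male 3, at 10.3 CPM (others 11.1 to 11.8 CPM). Scap was high in Q140 Ccdc82-/- female 1, at 103 CPM (others 99.6 to 101 CPM), and in Ccdc82-/- female 2, at 115 CPM (others 107 to 111 CPM). Insig2 was high in Q140 Ccdc82+/- female 2, at 46.2 CPM (others 40.3 to 42.7 CPM). Abca1 was high in Q140 female 2, at 92.9 CPM (others 60.9 to 73.0 CPM).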

How the results depend on the processing

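Of the 16 genes called in the average Q140 effect, 9 kept their direction and their call under all 11 alternatives run: Acat2, Mvk, Pmvk, Tm7sf2, Msmo1, Srebf2, Scap, Insig1 and Cyp46a1. The other 7 (Hmgcs1, Stard4, Fdps, Sqle, Hsd17b7, Insig2 and Abca1) lost it under at least 1. With females only, 5 of the 27 genes were called in Q140 against WT and 6 on the Ccdc82-/- background; with males only, 7 were called with Ccdc82+/- and 6 with Ccdc82-/-, with fewer libraries in each fit. Without the 2 libraries farthest from the median, the median r of enzyme pairs was 0.16. Of these pairs 3.27% lay over 0.5, in place of 7.19%. Among promoters, the sterol element extended by a leading A was found in 0 of the 23 genes and in 0.226% of all genes with a window. Uncalled genes changed sign in the average Q140 effect as follows, and the cause was not tested: Idi1 to 0.050 (total counts), 0.011 (plate column) and 0.0010 (females), Lss to 0.012 (total counts), Cyp51 to 0.035 (total counts) and 0.0079 (males), and Nsdhl to -0.017 (females) and -0.00041 (without WT male 1). Leaving out WT male 1 or Ccdc82-/- male 1, chosen after seeing the data, gave 9 to 10 calls in Q140 against WT, 11 on the Ccdc82+/- background, 9 to 10 on the Ccdc82-/- background and 16 in the average. Over all genes, females alone gave 4321 calls in Q140 against WT in place of 6655, 3324 in place of 6726 on the Ccdc82+/- background and 3452 in place of 6367 on the Ccdc82-/- background. Males alone gave 3922 in Q140 against WT and 3783 on the Ccdc82-/- background. With no filter, 1083 genes were called by sex in place of 1664.

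With the replicate number as a block, 10, 11 and 10 of the 27 genes were called on the WT, Ccdc82+/- and Ccdc82-/- backgrounds, 16 in the average and 7 by sex. The numbers are not shown to pair mice: libraries with the same number had a median r of -0.013 over 115 pairs, and those with different numbers -0.038 over 345 pairs.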
